A study of Mus musculus with 6 samples.

Results

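Endothelial identity genes are 8 genes whose products sit on the surface of the cells that line blood vessels, namely *Pecam1*, *Cdh5*, *Kdr*, *Tek*, *Flt1*, *Tie1*, *Emcn* and *Esam*. They were chosen by name, with earlier results of these data known, and all 8 were among the 10245 genes of the deposited table. RNA-seq had been performed on whole pancreata of 3 control mice with the genotype *Ptf1a*(CreER/+) and 3 *Ptf1a* cKO mice with the genotype *Ptf1a*(CreER/fl), where cKO stands for conditional knock-out. Every mouse had received tamoxifen by gavage at 0.25 mg/g on 3 days and was sacrificed on day 14, counted from the first dose. The comparison addresses how the endothelial transcripts of the pancreas behaved when acinar cells lost the transcription factor *Ptf1a*.

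Both groups carried the CreER allele, which makes no PTF1A protein, so the controls had a single working copy of *Ptf1a*. The cKO mice carried a floxed allele opposite it. The paper describes its inducible lines of these genotypes as also carrying the R26R-EYFP Cre reporter, which the labels do not list. Because the recombinase is made from the *Ptf1a* locus, the deletion is placed in acinar cells, which make the digestive enzymes, and not in the endothelium. The controls were sacrificed at 4 months and the cKO mice at 5 months, so age and genotype cannot be told apart. Controls 2 and 3 and cKO 1 and 3 were female, while control 1 and cKO 2 were male. Each library came from a separate mouse.

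Endothelial cells hold each other through adherens and tight junctions, and read signals from surrounding tissue through receptor tyrosine kinases. Vascular endothelial growth factors (VEGF) act on *Kdr* and *Flt1*, and angiopoietins act on *Tek*, which pairs with *Tie1*. Transcription factors of the ETS and SOX families bind the promoters and enhancers of many endothelial genes, and in the pancreas a dense capillary bed runs through both the islets and the exocrine tissue.

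Values are normalized counts, that is, read counts per gene that the authors scaled between libraries. A log2 fold change is the cKO mean minus the control mean of log2(value + pseudocount), with a pseudocount equal to 3.41 normalized counts. *Ptf1a* itself checked the labels. It had 566, 601 and 652 normalized counts in the controls and 19.8, 70.1 and 10.2 in the cKO libraries. The log2 fold change was -4.41 with an adjusted p of 3.29e-04 by limma, and the highest of the cKO values was in cKO 2. Of all genes, 33.9% (3475 of 10245) passed an adjusted p under 0.05, with 17.1% higher and 16.8% lower in the cKO group. Library medians ranged from 125.0 to 128.5 normalized counts, while totals over genes ranged from 17949900 to 21175800 in the controls and from 5527100 to 8981110 in the cKO libraries. Of 36 acinar enzymes and secreted proteins tested, 24 were lower and 3 higher in the cKO group. Because of that difference the choice of scaling decides directions here. If every library was given the same total, the median of all genes moved by 1.49 on the log2 scale, and all 8 endothelial genes passed the test as higher. The values below follow the authors' scaling unless another is named.

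RefSeq windows of the 250 bases before the transcription start were at hand for 5 of the 8 genes, namely *Kdr*, *Tek*, *Flt1*, *Tie1* and *Emcn*, while *Pecam1*, *Cdh5* and *Esam* had no window in the table used. The windows of *Kdr* and *Emcn* are printed because, of these 5 genes, *Kdr* had the most negative and *Emcn* the most positive log2 fold change. Capitals mark GGAA, the core of the ETS motif, or its reverse complement TTCC. Each window is given 5' to 3' on the strand of the gene in GRCm38.p6, at chr5:75978456-75978705 (minus strand) for *Kdr* and at chr3:137340828-137341077 (plus strand) for *Emcn*.
Kdr: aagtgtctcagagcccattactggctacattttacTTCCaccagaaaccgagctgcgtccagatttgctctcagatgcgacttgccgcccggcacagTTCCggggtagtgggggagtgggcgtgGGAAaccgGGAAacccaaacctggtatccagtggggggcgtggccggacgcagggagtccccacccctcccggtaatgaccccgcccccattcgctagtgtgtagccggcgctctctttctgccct
Emcn: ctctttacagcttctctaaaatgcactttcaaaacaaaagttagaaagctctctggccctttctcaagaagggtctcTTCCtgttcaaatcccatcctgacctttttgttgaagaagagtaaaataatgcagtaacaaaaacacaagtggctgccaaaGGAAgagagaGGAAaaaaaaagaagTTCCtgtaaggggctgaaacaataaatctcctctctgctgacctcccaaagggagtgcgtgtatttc
Both windows held 4 of these cores, *Flt1* held 4, *Tek* held 2 and *Tie1* held 7. The RefSeq starts of *Kdr*, *Emcn* and *Tie1* lay 3, 11 and 94 bases from the nearest start in the GENCODE annotation. By that annotation these windows reached into the gene, most of all for *Tie1*. At least 1 core was present in 93.4% of 32851 promoter windows of that length, with a median of 3, so its presence does not set these genes apart. The longer ETS string CAGGAAG, searched on both strands and overlapping the core, was found once, in *Emcn*, and in 10.8% of all windows. The SOX string ACAAT, also searched on both strands, occurred 2 times in *Tek* and 1 time in *Emcn*, and in 27.7% of all windows. The share of G and C was 61.6% in the *Kdr* window and 40.8% in the *Emcn* window. These matches describe letters only, and no binding was measured.

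By limma, none of the 8 endothelial genes passed the test between cKO and control pancreata, against 33.9% of all genes. At an unadjusted p under 0.05 there were 2 of 8, *Emcn* and *Esam*, both with higher values in the cKO group, against 4645 of 10245 genes. The groups did not overlap for 3 of the 8, *Cdh5*, *Emcn* and *Esam*, against 50.8% of all genes. In 2 of these, *Emcn* and *Esam*, the cKO values were the higher ones, against 26.5% of all genes. The median log2 change of the 8 was -0.089, with 0.036 for the whole table, and the median of its absolute size was 0.18, with 0.33 for the whole table. The summed level of the 8 genes was 1018, 841 and 1012 normalized counts in the controls and 896, 838 and 1027 in the cKO libraries, so the groups overlapped. Whole tissue was sequenced, so the number of endothelial cells and the RNA per cell cannot be told apart.

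**Figure D1:**
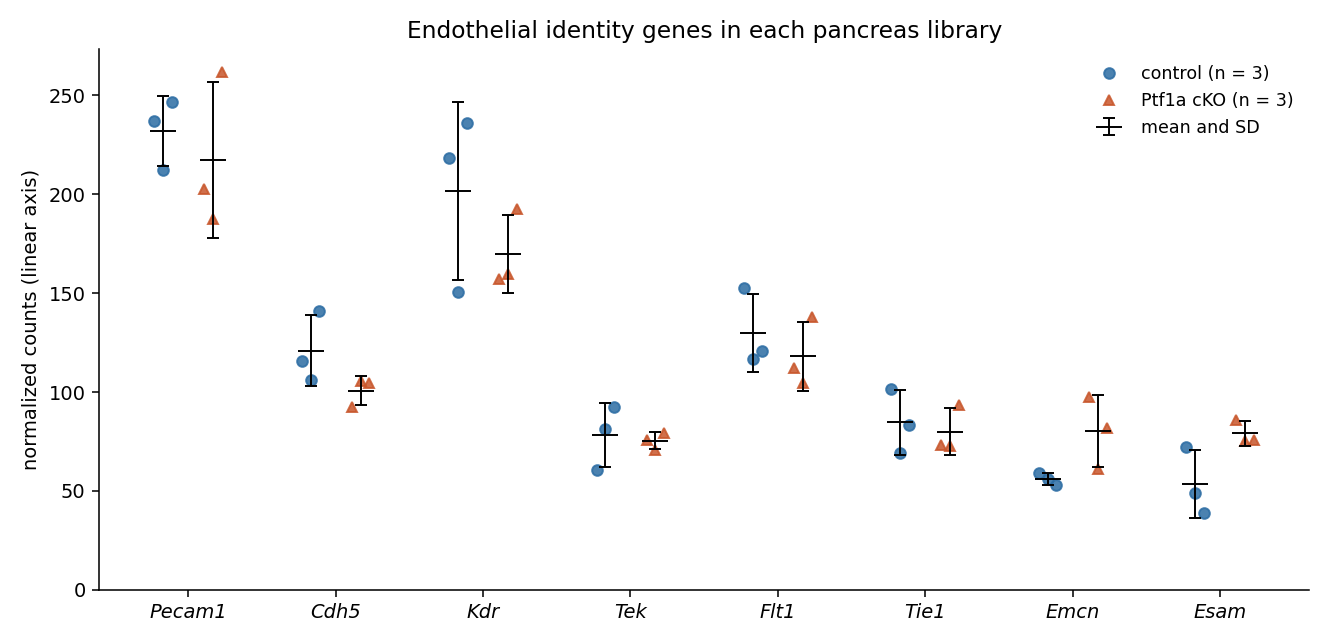
Normalized counts (linear vertical axis) of the 8 endothelial identity genes in each library, with circles for the 3 control and triangles for the 3 Ptf1a cKO pancreata and bars for the group mean and SD. The groups overlap for Pecam1, Kdr, Tek, Flt1 and Tie1, are barely apart for Cdh5, and are apart with higher cKO values for Emcn and Esam.

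The junction and adhesion genes did not share a direction. *Pecam1* (GRCm38 chromosome 11, 106654217 to 106750628, minus strand) encodes PECAM-1, also called CD31, an adhesion molecule of endothelial contacts that platelets and leukocytes carry as well. It had 237, 212 and 247 normalized counts in the controls and 202, 188 and 262 in the cKO libraries. The highest and the lowest value of *Pecam1* were both in the cKO group. Its log2 fold change was -0.10 (95% interval -0.43 to 0.22, adjusted p = 0.604 by limma), and the exact permutation test over mice gave p = 0.6. *Cdh5* (chromosome 8, 104101625 to 104144511, plus strand) encodes VE-cadherin, the cadherin of endothelial adherens junctions. Its values were 116, 106 and 141 in the controls and 92.2, 106 and 104 in the cKO libraries. The groups were apart by less than 1 normalized count, from 105.6 in cKO 2 to 106.2 in control 2. The log2 fold change of *Cdh5* was -0.25 (interval -0.56 to 0.068, adjusted p = 0.197 by limma), with an exact permutation p of 0.1, the smallest that 3 against 3 mice allow.

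*Esam* encodes an immunoglobulin-type adhesion molecule of endothelial tight junctions that platelets also carry, and lies at chromosome 9, 37528078 to 37538319, on the plus strand. It had 72.5, 49.1 and 39.1 normalized counts in the controls and 86.1, 75.4 and 75.7 in the cKO libraries. Every cKO library lay above every control, and the controls were the more spread group, with control 1 close to the cKO values. The mean was 53.6 ± 17.1 in controls and 79.1 ± 6.09 in cKO pancreata (SD, n = 3 each), and the log2 fold change was 0.57 (interval 0.094 to 1.05, adjusted p = 0.0643 by limma, exact permutation p = 0.1). Without control 1 the log2 fold change was 0.80 with an adjusted p of 0.0176 by limma, and it was 0.62 with an adjusted p of 0.0487 where every library was given the same 75th percentile. Without control 3 it was 0.38. It passed in 1 of the 6 fits that left out a library, with adjusted p-values of up to 0.168 by limma, and with the same total without acinar enzymes it was 0.44 (adjusted p = 0.137). None of the 9 platelet and megakaryocyte genes of a marker list was in the table, so a change in platelet RNA could not be read from them.

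*Emcn* encodes endomucin, a sialomucin of the endothelial surface found mainly in capillaries and veins, and lies at chromosome 3, 137341067 to 137432185, on the plus strand. Its values were 59.0, 55.9 and 52.9 normalized counts in the controls and 97.4, 61.1 and 82.0 in the cKO libraries. All cKO libraries lay above all controls, but cKO 2 was only just above control 1. The mean was 55.9 ± 3.07 in controls and 80.2 ± 18.3 in cKO pancreata (SD, n = 3 each), and the log2 fold change was 0.47 (interval 0.060 to 0.88, adjusted p = 0.0734 by limma, exact permutation p = 0.1). Without cKO 2 it was 0.65 with an adjusted p of 0.0170 by limma, and without cKO 1 it was 0.32 with an adjusted p of 0.239. It passed in 1 of the 6 fits that left out a library, and with the same total without acinar enzymes it was 0.34 (adjusted p = 0.142 by limma). The 2 female mice of each group alone were an alternative chosen after seeing the data. The log2 fold changes of *Emcn* and *Esam* were then 0.68 and 0.83, with adjusted p-values of 0.0361 and 0.0259 by limma. That choice left out control 1 and cKO 2. Leaving out control 1 alone already made *Esam* pass, and leaving out cKO 2 alone made *Emcn* pass. The fit to female mice thus adds no separate result. With sex as a covariate over all 6 libraries, neither gene passed.

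The VEGF receptor genes had values that overlapped between the groups. *Kdr* encodes VEGFR2, the main signalling receptor for VEGF-A, and lies at chromosome 5, 75932827 to 75978458, on the minus strand. It had 219, 151 and 236 normalized counts in the controls and 157, 160 and 192 in the cKO libraries. Its lowest value was in control 2, below all cKO libraries, while controls 1 and 3 lay above them. The log2 fold change of *Kdr* was -0.22 (interval -0.62 to 0.17, adjusted p = 0.347 by limma, exact permutation p = 0.4). Without control 2 it was -0.42 (adjusted p = 0.0736 by limma), and over all fits that left out a library it ranged from -0.42 to -0.10. *Flt1* (chromosome 5, 147561604 to 147726011, minus strand) encodes VEGFR1, which binds VEGF-A, VEGF-B and placental growth factor and is also made as a soluble decoy. Its values were 152, 117 and 121 in the controls and 112, 105 and 138 in the cKO libraries, with a log2 fold change of -0.13 (interval -0.48 to 0.21, adjusted p = 0.528 by limma, exact permutation p = 0.5). A single value per gene does not separate the soluble from the membrane form.

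The TIE receptor genes lay closest to no difference. *Tek* encodes TIE2, the receptor for angiopoietins, and lies at chromosome 4, 94739289 to 94874976, on the plus strand. It had 60.6, 81.4 and 92.5 normalized counts in the controls and 76.0, 70.7 and 79.3 in the cKO libraries, so all cKO values fell inside the range of the controls. Its log2 fold change was -0.032 (interval -0.42 to 0.35, adjusted p = 0.900 by limma, exact permutation p = 0.8). *Tie1*, an orphan receptor that pairs with TIE2, lies at chromosome 4, 118471191 to 118490061, on the minus strand. Its values were 102, 69.1 and 83.3 in the controls and 73.1, 72.9 and 93.7 in the cKO libraries, again all inside the range of the controls. The log2 fold change of *Tie1* was -0.073 (interval -0.47 to 0.32, adjusted p = 0.773 by limma, exact permutation p = 0.7). For the 6 genes with negative estimates, the intervals reached from -0.62 (*Kdr*) to 0.35 (*Tek*), so differences within those bounds were not excluded.

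**Figure D2:**
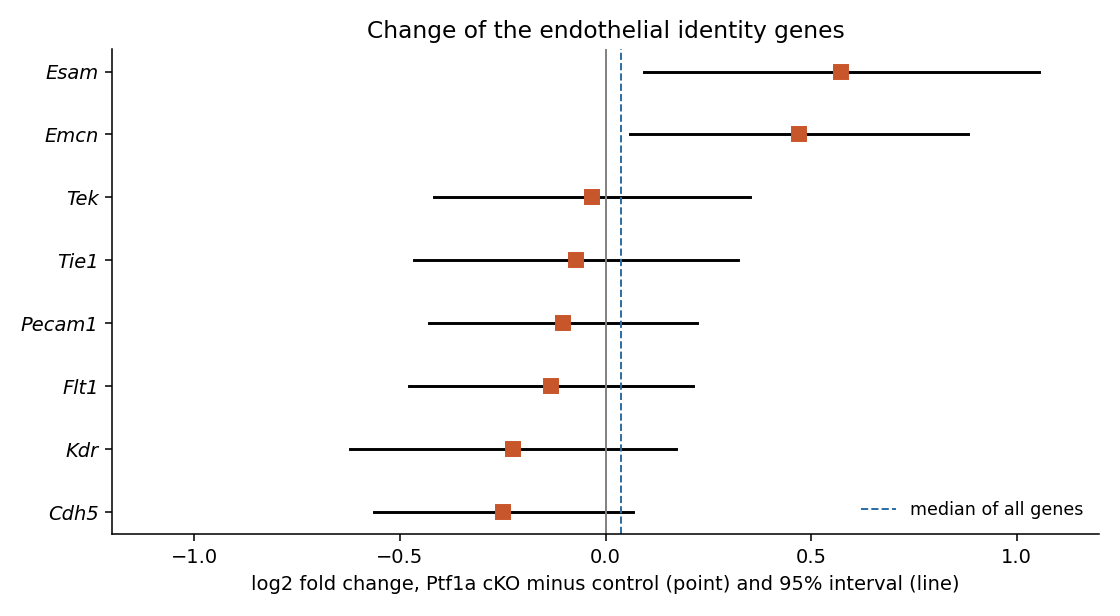
Log2 fold change from control to Ptf1a cKO (horizontal axis) of each endothelial gene, with squares for the estimate and lines for its 95% interval from limma with 3 mice per group. The dashed line is the median of all 10245 genes (0.036), and the intervals of 6 genes include 0 while those of Emcn (0.060 to 0.88) and Esam (0.094 to 1.05) lie above it.

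Ratios within a library depend little on the scaling between libraries, which cancels except for the pseudocount, and 4 pairs were compared on the log2 scale by exact permutation tests. The log2 ratio of *Esam* to *Cdh5*, both junction genes, was -0.65, -1.06 and -1.76 in the controls and -0.095, -0.47 and -0.45 in the cKO libraries. It was higher in every cKO library, by 0.82 (SE 0.35), with an exact p of 0.1 that became 0.2 after Benjamini-Hochberg adjustment over the 4 pairs. Every cKO library lay above every control for *Esam* and below every control for *Cdh5*. The separation of this ratio and its exact p were thus fixed by the single genes and add no separate result. The log2 ratio of *Emcn* to *Pecam1* was -1.95, -1.86 and -2.15 in the controls and -1.03, -1.57 and -1.64 in the cKO libraries. The groups were again apart, by 0.58 (SE 0.21), with an exact p of 0.1 and an adjusted value of 0.2. Between receptors of a family the groups overlapped, with differences of 0.091 (SE 0.18, exact p = 0.8) for *Flt1* over *Kdr* and -0.041 (SE 0.31, exact p = 1) for *Tie1* over *Tek*, and both had adjusted values of 1. No pair could pass an adjusted p under 0.05 in a design whose smallest exact p is 0.1.

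The endothelial genes also moved between mice of the same group. Control 2 had the lowest value of its group for 5 of the 8 genes and the highest for none, and cKO 2 had the lowest of its group for 6 of 8. By contrast, cKO 3 had the highest value of its group for 5 of 8 and the lowest for none. Averaged over the 8 genes, the log2 deviation from the mean of all 6 libraries was 0.089, -0.15 and 0.018 in the controls and 0.0069, -0.11 and 0.14 in the cKO libraries. Over the 6 libraries the highest Pearson correlation between members was 0.92 for *Flt1* and *Tie1*, followed by 0.81 for *Cdh5* and *Kdr* and by 0.79 for *Kdr* and *Tie1*. *Emcn* and *Esam* correlated at 0.75 with each other and at -0.76 and -0.80 with *Cdh5*. After the group means were removed these became 0.40, -0.51 and -0.59, while *Flt1* and *Tie1* were at 0.94, *Cdh5* and *Kdr* were at 0.77 and *Kdr* and *Tie1* at 0.81. These coefficients are a description over 6 libraries from 2 genotypes, and all genes of a library share its scaling.

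**Figure D3:**
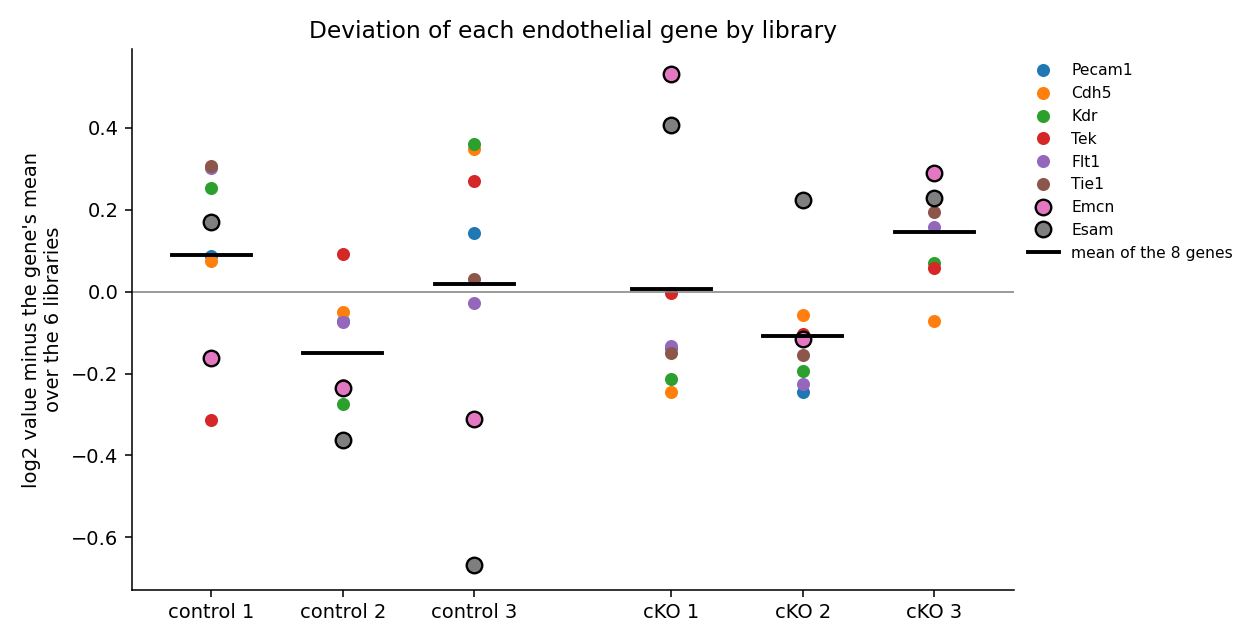
Deviation of each endothelial gene in each library, as its log2 value minus its own mean over the 6 libraries (vertical axis), with colours for genes, black rings around Emcn and Esam, and black bars for the mean of the 8 genes. Emcn and Esam lie above the bar in cKO 1 and cKO 3, most of the 8 genes lie below 0 in control 2 and cKO 2, and the bars run from -0.15 in control 2 to 0.14 in cKO 3.

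The 5 genes outside the list whose log2 values followed the average of the 8 most closely were *Stat2* (r = 0.976), *Bak1* (r = 0.961), *Efnb2* (r = 0.949), *Fam46b* (r = 0.945) and *Eepd1* (r = 0.942), over 6 libraries. *Efnb2* encodes ephrin-B2, a ligand known from arterial endothelium. It had 31.0, 18.9 and 25.1 normalized counts in the controls and 29.2, 22.6 and 32.5 in the cKO libraries, lowest in control 2 and highest in cKO 3. *Stat2*, a transducer of interferon signals, had 185, 139 and 187 in the controls and 175, 147 and 213 in the cKO libraries, with the same library lowest and highest. These genes were picked from the whole table by this likeness, so the coefficients carry no test.

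To compare levels between genes, normalized counts were divided by the length of merged exons of each gene in kilobases. In controls *Pecam1* was highest at 56.1 ± 4.33 normalized counts per kilobase (SD, n = 3). *Kdr* followed at 34.1 ± 7.60, *Cdh5* at 30.3 ± 4.47 and *Esam* at 28.7 ± 9.19. The lower levels per kilobase were 21.6 ± 1.18 for *Emcn*, 18.6 ± 3.58 for *Tie1*, 16.6 ± 3.44 for *Tek* and 11.9 ± 1.79 for *Flt1*. Of the neighbours in this order, *Pecam1* and *Kdr* had ranges over the controls that did not overlap, while every other neighbouring pair overlapped in the controls. In the cKO libraries the order was *Pecam1* at 52.6 ± 9.51, *Esam* at 42.4 ± 3.27, *Emcn* at 31.0 ± 7.06, *Kdr* at 28.7 ± 3.30, *Cdh5* at 25.2 ± 1.86, *Tie1* at 17.6 ± 2.62, *Tek* at 16.0 ± 0.93 and *Flt1* at 10.8 ± 1.59. *Cdh5* exceeded *Esam* per kilobase in 2 of 3 controls and in 0 of 3 cKO libraries. The order rests on the annotated exon lengths, which are longest for *Flt1* (10961 bases), whose annotation merges several transcript ends.

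The ligands and co-receptors of the VEGF receptors were read from a list of 8 genes, of which 6 were in the table. *Vegfb* and *Pgf* were lower in the cKO group, none was higher, and the median log2 fold change was -0.18. That is 33.3% called, near the 33.9% of all genes. *Vegfb* encodes VEGF-B, a ligand of *Flt1*. It had 288, 328 and 277 normalized counts in the controls and 122, 133 and 83.6 in the cKO libraries. The groups were far apart, with a log2 fold change of -1.40 (SE 0.17, adjusted p = 5.26e-04 by limma), although the value was 0.070 when every library was given the same total. *Pgf* encodes placental growth factor, another ligand of *Flt1*, and had 201, 142 and 166 in the controls against 30.5, 69.3 and 17.8 in the cKO libraries. Its log2 fold change was -2.20 (SE 0.38, adjusted p = 0.00253 by limma), and cKO 2 was nearest to the controls, as it was for *Ptf1a*.

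*Vegfa*, the ligand of both *Kdr* and *Flt1*, was the most abundant of these ligands in normalized counts, with 951, 914 and 974 in the controls and 977, 761 and 791 in the cKO libraries. The groups overlapped because cKO 1 exceeded every control, and the log2 fold change was -0.17 (SE 0.13, adjusted p = 0.309 by limma). The co-receptors *Nrp1* and *Nrp2* had log2 fold changes of 0.068 and -0.19, and *Flt4*, the receptor for the lymphatic VEGF ligands, had 0.070, with adjusted p-values of 0.747, 0.632 and 0.879 by limma.

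Of 5 angiopoietins and TIE regulators, 3 were in the table and none passed the test, against 33.9% of all genes. A count over 3 genes is too small to read as a result. *Angpt1*, the activating ligand of TIE2, had 61.1, 38.8 and 58.8 normalized counts in the controls and 33.3, 61.7 and 27.6 in the cKO libraries. The highest value of *Angpt1* was in cKO 2 and the other cKO libraries lay below all controls, giving a log2 fold change of -0.40 (SE 0.30, adjusted p = 0.325 by limma). *Ptprb* encodes VE-PTP, the phosphatase that acts on TIE2 and VE-cadherin. It had 203, 219 and 262 in the controls and 155, 190 and 194 in the cKO libraries, which did not overlap, with a log2 fold change of -0.34 (SE 0.14, adjusted p = 0.0941 by limma). *Svep1*, a matrix protein that binds TIE1, had a log2 fold change of 0.46 (SE 0.22, adjusted p = 0.129 by limma) with overlapping groups.

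Among endothelial transcription factors, 11 of 21 listed genes were in the table, 2 were higher, 2 were lower and 7 did not pass, with a median log2 fold change of 0.47. That is 36.4% called against 33.9% of all genes. *Sox7*, a SOX factor of the developing and adult endothelium, fell the most. It had 46.7, 50.3 and 94.2 normalized counts in the controls and 7.82, 12.8 and 7.79 in the cKO libraries, a log2 fold change of -2.33 (SE 0.34, adjusted p = 0.00116 by limma). Every cKO library lay far below every control, and *Sox7* was lower under each scaling tried. All its cKO values lay below 27.6 normalized counts, so *Sox7* was in the table only through the controls. Whole pancreas was sequenced, and which cells made the *Sox7* RNA was not tested. *Heyl*, a Notch target of vessel walls, had 102, 101 and 116 against 65.2, 82.8 and 70.0, a log2 fold change of -0.53 (SE 0.14, adjusted p = 0.0174 by limma) that became 0.91 with the same total in every library.

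The higher factors were *Lmo2* and *Elk3*. *Lmo2*, a partner of blood and endothelial transcription complexes, had 14.1, 17.5 and 23.6 normalized counts in the controls and 36.9, 31.8 and 48.8 in the cKO libraries, a log2 fold change of 0.97 (SE 0.28, adjusted p = 0.0277 by limma). *Elk3*, an ETS factor, had 77.5, 68.8 and 73.7 against 98.0, 94.3 and 119, a log2 fold change of 0.48 (SE 0.14, adjusted p = 0.0263 by limma). Both groups of values were apart. All controls of *Lmo2* lay below 27.6 normalized counts, which every gene of the table reached in some library. *Lmo2* was thus in the table only through its cKO values, and its place among the higher factors was partly set by that limit. Neither gene passed the test without control 1, without control 2, without cKO 1 or without cKO 3, where the adjusted p-values of *Lmo2* by limma lay between 0.0688 and 0.0877 and those of *Elk3* between 0.0520 and 0.102. *Heyl* did not pass without cKO 1 or without cKO 3 (adjusted p = 0.0614 and 0.0543 by limma). The count of 2 higher factors became 1 without cKO 1 and 0 without control 1, control 2 or cKO 3.

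**Figure D4:**
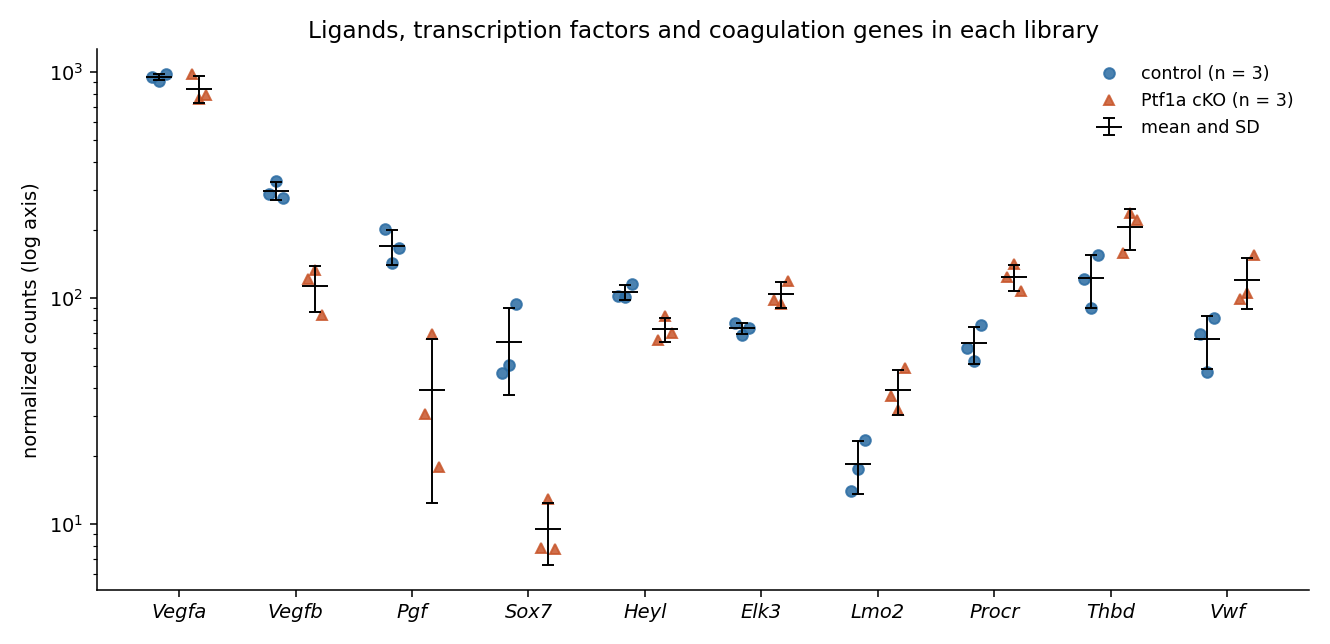
Normalized counts (log vertical axis) of VEGF ligands, endothelial transcription factors and coagulation genes in each library, with circles for the 3 control and triangles for the 3 Ptf1a cKO pancreata and bars for mean and SD. Vegfb, Pgf, Sox7 and Heyl lie lower and Elk3, Lmo2, Procr, Thbd and Vwf higher in the cKO group, while Vegfa overlaps.

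Of 42 other endothelial surface and junction genes, 30 were in the table, 7 were higher, none was lower and 23 did not pass, with a median log2 fold change of 0.080. That is 23.3% called against 33.9% of all genes. *Procr*, the endothelial protein C receptor, had 60.2, 52.6 and 75.8 normalized counts in the controls and 123, 141 and 107 in the cKO libraries, a log2 fold change of 0.94 (SE 0.17, adjusted p = 0.00306 by limma). *Thbd*, thrombomodulin, which works with that receptor in the protein C pathway, had 122, 90.1 and 155 against 158, 238 and 220, a log2 fold change of 0.74 (SE 0.21, adjusted p = 0.0260 by limma). *Vwf*, von Willebrand factor, the platelet-binding protein of endothelial granules, had 69.3, 47.0 and 81.4 against 99.3, 105 and 155, a log2 fold change of 0.84 (SE 0.23, adjusted p = 0.0211 by limma). Each of these coagulation genes was higher in every cKO library than in every control.

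*Ltbp4*, a matrix protein that binds latent TGF-beta, had a log2 fold change of 0.77 (SE 0.14, adjusted p = 0.00351 by limma). The other 3 genes that passed, named after their values were seen, were *Sparcl1* (0.57), *Acvrl1* (0.60) and *Cd34* (0.45), with adjusted p-values of 0.0369, 0.0462 and 0.0495 by limma. The count of 7 fell to 2 without control 1, without control 2 or without cKO 3, and to 3 when the total without acinar enzymes was made equal, where *Thbd* did not pass (adjusted p = 0.0767 by limma) and neither did *Elk3* (0.103). *Procr* and *Ltbp4* passed whichever library was left out. *Vwf* did not pass without control 1, control 2 or cKO 3 (adjusted p of 0.0503, 0.0685 and 0.0726 by limma). *Thbd* did not pass without control 1, control 2, cKO 2 or cKO 3, where its adjusted p by limma lay between 0.0584 and 0.0881.

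Of 9 arterial and Notch genes, 5 were in the table and 2 were lower, against 16.8% of all genes lower and 33.9% called either way. *Jag1*, a Notch ligand, had 152, 132 and 163 normalized counts in the controls and 57.1, 105 and 75.7 in the cKO libraries, a log2 fold change of -0.92 (SE 0.20, adjusted p = 0.00853 by limma). *Notch1*, its receptor, had 308, 363 and 341 against 157, 262 and 229, a log2 fold change of -0.66 (SE 0.18, adjusted p = 0.0206 by limma). With the same total in every library the values were 0.53 for *Jag1* and 0.82 for *Notch1*, and *Notch1* did not pass without control 2 or without control 3 (adjusted p = 0.0736 and 0.0564 by limma). Of the 6 cytoplasmic partners of VE-cadherin, which other cell types also make, 3 were higher and none lower, against 17.1% of all genes higher. *Ctnnd1*, p120-catenin, changed by 0.86 on the log2 scale (adjusted p = 0.00139 by limma), *Vcl*, vinculin, by 0.67 (adjusted p = 0.00512) and *Ctnna1*, alpha-catenin, by 0.42 (adjusted p = 0.0327). *Ctnna1* did not pass without control 2, control 3, cKO 2 or cKO 3, nor with the same total without acinar enzymes. Only 2 of 7 lymphatic markers were in the table, and neither *Lyve1* (log2 value higher by 0.89, adjusted p = 0.0719 by limma) nor *Flt4* passed.

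**Figure D5:**
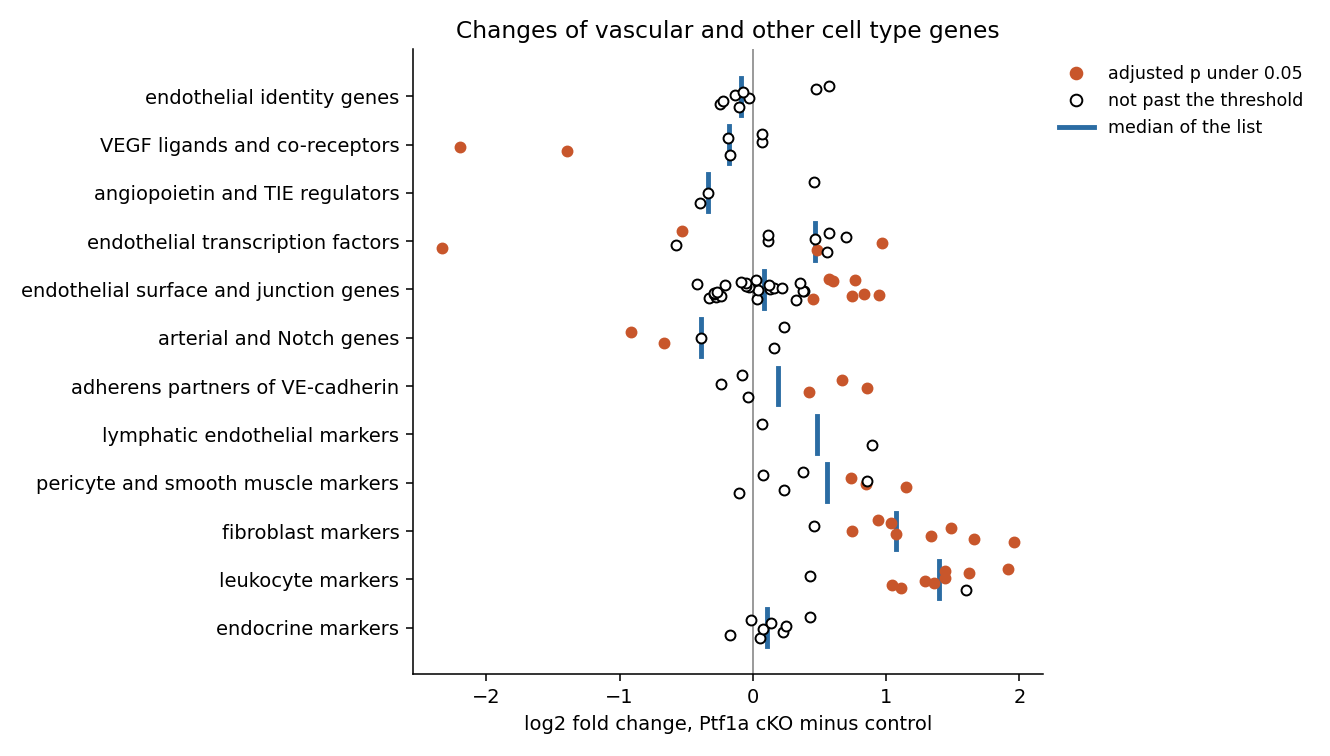
Log2 fold change from control to Ptf1a cKO (horizontal axis) of each tested gene in the endothelial identity list and 11 other lists, with filled points past an adjusted p under 0.05, open points not past it, and vertical bars for list medians. The median is -0.089 for the endothelial identity genes, 1.08 for fibroblast and 1.40 for leukocyte markers.

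Most tested markers of fibroblasts and leukocytes were higher in the cKO group. Of 9 fibroblast markers, all in the table, 8 were higher, which is 88.9% called against 33.9% of all genes. Their summed levels were 3147 to 3628 normalized counts in the controls and 5862 to 11147 in the cKO libraries. *Lum*, lumican of the collagen matrix, rose by 1.49 on the log2 scale (adjusted p = 9.09e-05 by limma). Of 12 leukocyte markers 10 were in the table and 8 were higher, with sums of 487 to 809 against 1271 to 2886, highest in cKO 3, and the count of 8 fell to 5 without control 2. *Csf1r*, the receptor of macrophage growth factor, rose by 1.05 (adjusted p = 0.00352 by limma). Of 12 pericyte and smooth muscle markers 8 were in the table, 3 were higher and 5 did not pass, with sums of 371 to 421 against 465 to 805. That is 37.5% called against 33.9% of all genes, and the count of 3 fell to 1 without control 1, cKO 1 or cKO 3. *Myh11*, smooth muscle myosin, rose by 0.85 (adjusted p = 0.0135 by limma). The sums did not overlap between groups for any of these lists. Their part in the values of *Emcn*, *Esam*, *Lmo2*, *Elk3*, *Procr*, *Thbd*, *Vwf*, *Ltbp4*, *Sparcl1*, *Acvrl1* and *Cd34* was not tested. Which cells made the RNA of the lower genes *Sox7*, *Heyl*, *Pgf*, *Vegfb*, *Jag1* and *Notch1* was not tested either.

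Endocrine markers overlapped between the groups. Of 8 endocrine markers none passed with all libraries and 5 passed as higher without cKO 2, with sums of 10648 to 39874 normalized counts in the controls and 5408 to 31493 in the cKO libraries. The endocrine sums thus differed severalfold between mice of the same group. Of 10 fat cell markers 7 were in the table and 1, *Cfd*, was higher, with sums of 233 to 608 against 406 to 1521, highest in cKO 3. None of 7 red cell markers was in the table. Of 9 ductal markers 8 were in the table and 4 were higher, which is 50% called against 33.9% of all genes. The ductal sums were 4978 to 5935 against 26797 to 111419, which did not overlap. *Sox9*, the ductal marker with the smallest adjusted p, rose by 2.21 on the log2 scale (adjusted p = 2.00e-05 by limma), and *Spp1*, osteopontin, by 5.14 (adjusted p = 2.27e-04). Of 13 genes of the hypoxia response, which includes the control of *Vegfa*, 9 were in the table, with 3 lower and 1 higher. That is 44.4% called against 33.9% of all genes. *Ndrg1* (-2.61), *Pdk1* (-1.22) and *Egln1* (-0.54) were lower and *Hif1a* (0.39) was higher, with adjusted p-values of 4.48e-05, 1.74e-04, 0.00620 and 0.0339 by limma. *Hif1a* did not pass without control 1, cKO 1 or cKO 3.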

How the data were processed

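Single-end RNA-seq libraries were made from whole pancreata, 3 from control and 3 from *Ptf1a* cKO mice. The authors deposited a single table of normalized counts, a signal scaled between libraries, and their methods name TMM scaling in edgeR. The submitters' processing notes name TopHat2 2.0.4, Bowtie 0.12.7.0, SAMtools 0.1.18.0, HTSeq 0.6.0 and the mm9 build. Strand handling is not given in the sources used here. Whole reads could not be recovered from the decimals, so the depth behind each value is unknown and no count test was run. The table holds 10245 genes, each reaching 27.6 normalized counts or more in some library. Entries without a gene (75.7% to 82.6% of a library) were left out.

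A factor of 13.6393, common to all libraries, was divided out and log2(value + 0.25) was tested by limma 3.58.1 in R 4.3.3 (mean-variance trend, two-sided, Benjamini-Hochberg adjustment over all genes, threshold 0.05). A mean of at least 0.25 was required and removed no gene. Such fold changes understate those of low genes. In simulated data with 10245 genes for this comparison, 68 of 100 genes changed by 1 on the log2 scale and 91 of 100 changed by 2 were recovered, with 6 false calls. Single genes and ratios were also tested by exact permutation of mice (two-sided). Positions and exon lengths came from GENCODE (GRCm38) and promoter windows from RefSeq (GRCm38.p6), matched by symbol, since the table gives no coordinates. Python 3.11.15 with pandas 2.3.3 and matplotlib 3.10.9 was used.

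The endothelial genes and all lists were chosen with earlier results of these data known. Genes named from other lists are up to 4 with the smallest adjusted p past the threshold, or the 2 with the highest mean where none passed. VEGF ligands and angiopoietins may be named in full. Alternatives were 4 other scalings, other pseudocounts and filters, limma without a trend, a replicate block, a stricter threshold, and each library left out. The female mice alone, and all alternatives for the other lists, were added after seeing the data.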

Additional observations from a re-analysis of the deposited data

How the results depend on the processing

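Over the 8 endothelial genes and all alternatives, 122 of 144 values kept their direction and side of the threshold, 8 passed it in the same direction and 14 changed sign. Giving every library the same total moved the median of all genes to 1.49 and called 9719 genes (98.7% of them higher), including all 8 endothelial genes, whose median was 1.37. *Pecam1* was then 1.37, *Cdh5* 1.21, *Kdr* 1.25, *Tek* 1.41, *Flt1* 1.33 and *Tie1* 1.37, and among other genes *Heyl* was 0.91, *Jag1* 0.53, *Notch1* 0.82, *Vegfb* 0.070, *Vegfa* 1.32, *Angpt1* 0.99 and *Ptprb* 1.14. Relative to that median of all genes, the first 6 lay between -0.28 and -0.080, *Emcn* at 0.42 and *Esam* at 0.52. With the same 75th percentile 1 endothelial gene passed, *Esam*, and *Tek* was 0.011. With the same total without acinar enzymes the endothelial median was -0.22, that of all genes -0.097, and 35.0% of calls were higher, against 50.4%. At an adjusted p under 0.01, 1794 genes were called. With sex as a covariate over all 6 libraries, 0 endothelial genes passed. The 2 female mice of each group leave out control 1 and cKO 2. In these mice 2 endothelial genes passed, *Emcn* and *Esam*, and the endothelial median was 0.037. *Pecam1* was 0.0099, *Flt1* 0.064 and *Tie1* 0.12, while *Lmo2*, *Elk3*, *Thbd* and *Ctnna1* did not pass. The cause of these shifts was not tested.

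Leaving out each library in turn gave 2363 to 3601 calls over all genes and 0 to 1 endothelial genes, with an endothelial median of -0.22 to -0.011 and a log2 fold change of *Ptf1a* of -5.10 to -3.88. *Tek* ranged from -0.20 to 0.095 (0.0058 without control 2, 0.095 without control 3, 0.011 without cKO 2) and *Tie1* from -0.20 to 0.062 (0.062 without control 1). *Pecam1* ranged from -0.24 to -0.0076, *Cdh5* from -0.33 to -0.14, *Kdr* from -0.42 to -0.10, *Flt1* from -0.25 to -0.016, *Emcn* from 0.32 to 0.65 and *Esam* from 0.38 to 0.80. The log2 ratio differences ranged from -0.079 to 0.21 for *Flt1* over *Kdr*, from -0.21 to 0.26 for *Tie1* over *Tek*, from 0.38 to 0.69 for *Emcn* over *Pecam1* and from 0.52 to 1.07 for *Esam* over *Cdh5*. Replicate numbers carried no stated pairing, and same-numbered libraries correlated at 0.039, 0.13 and 0.14 in their deviations, with cKO 1 closest to control 2 (0.083). With the replicate block 3525 genes and 1 endothelial gene, *Esam* (adjusted p = 0.0399 by limma), passed. edgeR and DESeq2 were not run, since reads could not be recovered. Depth is unknown, and 3 mice per group set the precision.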
